A study of Rattus norvegicus with 6 samples.

Results

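The enzymes that make serine from glucose and pass its carbon on to folate were measured through 9 genes, which are Phgdh, Psat1, Psph, Shmt1, Shmt2, Mthfd1, Mthfd1l, Mthfd2 and Aldh1l1. The genes were found by name, as the probe sets whose platform gene symbol was one of these 9. Each gene had 1 probe set, so 9 of the 14217 named genes on the array are described. The samples were cultured heart muscle cells of newborn Wistar rats, 1 to 2 days of age, purified from fibroblasts on a density gradient. There were 3 groups of 2 arrays: untreated control cells, cells given phenylephrine, an agonist of the α1-adrenergic receptor, at 50 µmol/l, and cells held under biaxial stretch at 112% for 24 h. Stretched cells sat on a silicone membrane with a collagen coat. Their serum was withdrawn after 36 h, and they spent 24 h without serum before the stretch. The growth surface and serum history of the other cells, and the duration of phenylephrine, were not stated in these labels. The protocol text of the phenylephrine arrays also lists endothelin-1 and angiotensin-II at 100 nM each, but their titles name phenylephrine alone. RNA of several cell preparations was pooled. The labels do not tell whether replicate arrays stem from different cultures, so p-values measure only the spread between these arrays, which may be technical.

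Serine is built from the glycolytic intermediate 3-phosphoglycerate in a short chain of reactions run by PHGDH, PSAT1 and PSPH. Serine then hands a carbon unit to tetrahydrofolate, in the mitochondria through SHMT2, MTHFD2 and MTHFD1L and in the cytosol through SHMT1 and MTHFD1, and these units feed the synthesis of purines and thymidylate and the methylation of homocysteine. ALDH1L1 is the cytosolic enzyme that burns such units to CO2. Several genes of the chain are known targets of the transcription factor ATF4, and in heart muscle they are known to rise when mitochondrial function is impaired.

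Levels are deposited log2 signals. A change is the difference between 2 group means, with its standard error (SE) from limma fitted to all 6 arrays, and n = 2 arrays per group throughout. A gene is said to rise or fall where the adjusted p of limma, over 31042 probe sets, was under 0.05. With phenylephrine, 5 of the 9 genes rose and 0 fell: Phgdh, Psph, Shmt2, Mthfd2 and Mthfd1l. Among all probe sets, 3.6% changed with phenylephrine, 1.73% upwards and 1.87% downwards. With stretch, 2 of the 9 rose and 0 fell, Shmt2 and Mthfd2, where 0.345% of all probe sets changed, 0.306% upwards and 0.0387% downwards. At an unadjusted p under 0.05 there were 5 of the 9 with phenylephrine (16.6% of all probe sets) and 6 of the 9 with stretch (5.54%). The median change of the 9 genes was 0.57 log2 with phenylephrine and 0.48 with stretch, beside 0.006 over all probe sets in each comparison. Both comparisons use the same control arrays. No gene of the 3 cytosolic folate enzymes and not Psat1 passed in either of them.

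**Figure D1:**
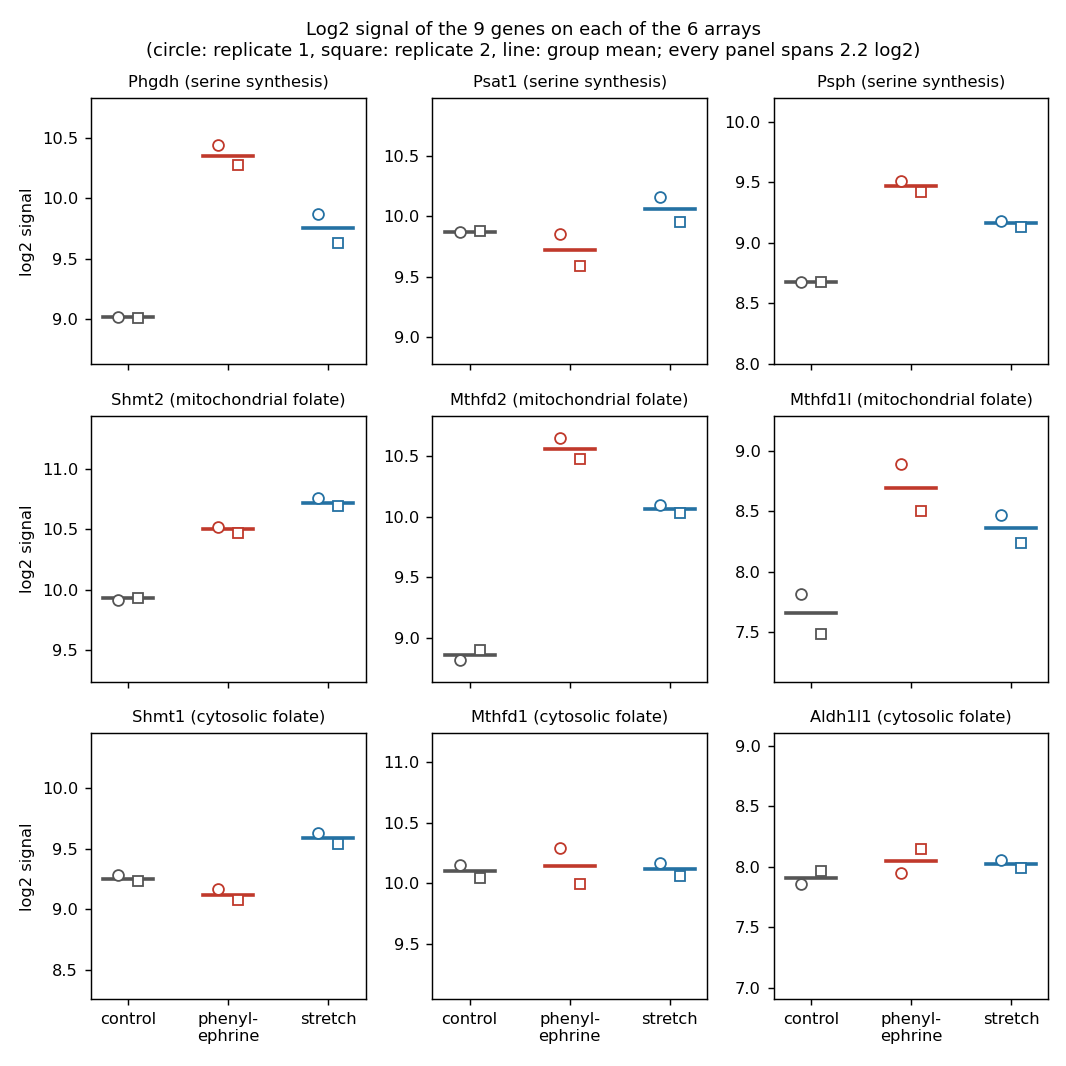
Log2 signal (vertical axis) of the 9 genes on the control, phenylephrine and stretch arrays, with circles for replicate 1, squares for replicate 2 and lines for group means; each panel spans the same width. Phgdh, Psph, Mthfd2 and Mthfd1l are highest on the phenylephrine arrays, Shmt2 on the stretch arrays, and Mthfd1 lies at the same height in the 3 groups.

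The entry into serine synthesis is the oxidation of 3-phosphoglycerate by PHGDH. Phgdh (probe set 1367811_at) gave 9.02 and 9.01 in control, 10.44 and 10.27 with phenylephrine and 9.87 and 9.63 with stretch. All 4 treated arrays lay above both controls, and both phenylephrine arrays lay above both stretch arrays. The gene rose 2.52-fold with phenylephrine (1.34 ± 0.12 log2, SE; 95% interval 1.06 to 1.61; adjusted p = 0.00224), and with stretch it had 0.73 ± 0.12 (95% interval 0.46 to 1.00; adjusted p = 0.0643). The stretch value passed with arrays centred on their medians (adjusted p = 0.0365) or quantile normalized (0.0063) in limma. It did not pass in limma without the mean-variance trend (adjusted p = 0.0616). With 1 array left out, the stretch change was 0.61 to 0.85 log2. The rise with phenylephrine was past the threshold in each of the 6 fits that left out 1 array.

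The step after PHGDH is run by PSAT1, an aminotransferase that takes its amino group from glutamate. Psat1 (1372665_at) gave 9.87 and 9.88 on the control arrays, 9.85 and 9.59 with phenylephrine and 10.16 and 9.95 with stretch. Phenylephrine arrays were below both controls and stretch arrays above them, by gaps of 0.02 and 0.07 log2. Neither difference passed (-0.16 ± 0.13 with phenylephrine, adjusted p = 0.624; 0.18 ± 0.13 with stretch, adjusted p = 1). The 95% intervals were -0.45 to 0.14 with phenylephrine and -0.11 to 0.48 with stretch.

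The last step is the removal of phosphate by PSPH. Psph (1375964_at) gave 8.68 on both control arrays, 9.51 and 9.42 with phenylephrine and 9.18 and 9.13 with stretch. Its 3 groups did not overlap, in the same order as for Phgdh. It rose 1.73-fold with phenylephrine (0.79 ± 0.08; adjusted p = 0.00400), though at adjusted p = 0.0504 without control replicate 2. With stretch the change was 0.48 ± 0.08 (adjusted p = 0.0919), which passed after quantile normalization (adjusted p = 0.0267). It did not pass in limma with arrays centred on their medians (adjusted p = 0.0624). With 1 array left out, the stretch change was 0.45 to 0.51 log2.

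The stretches of DNA before the start sites of Phgdh and Psat1 are shown because these enzymes act one after the other, and Phgdh passed the test with phenylephrine where Psat1 did not. Each holds the 250 bases before the RefSeq start in build GRCr8, written 5′ to 3′ along the gene, for Phgdh chr2:188624790-188625039 and for Psat1 chr1:222645409-222645658, both on the minus strand. Capitals mark CCAAT boxes on either strand.
Phgdh: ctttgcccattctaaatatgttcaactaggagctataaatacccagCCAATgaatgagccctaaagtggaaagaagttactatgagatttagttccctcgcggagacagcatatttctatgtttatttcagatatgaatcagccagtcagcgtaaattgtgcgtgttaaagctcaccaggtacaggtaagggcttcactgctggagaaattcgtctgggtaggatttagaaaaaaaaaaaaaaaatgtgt
Psat1: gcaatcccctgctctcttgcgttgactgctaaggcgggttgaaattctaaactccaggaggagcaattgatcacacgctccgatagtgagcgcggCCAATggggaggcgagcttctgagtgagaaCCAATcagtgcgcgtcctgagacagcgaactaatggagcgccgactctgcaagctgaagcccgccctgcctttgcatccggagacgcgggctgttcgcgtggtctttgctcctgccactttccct
The Phgdh window holds 1 CCAAT box, 204 bases before the start, and 38.8% of its bases are G or C. The Psat1 window holds 2, at 155 and 125 bases, and has 58.0% G or C. The median over 33469 windows of the same length was 51.2%.

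The mitochondrial folate enzymes held the largest change of the 9 genes. SHMT2 splits serine into glycine and a folate-bound carbon unit in the mitochondrion. Shmt2 (1388695_at) gave 9.92 and 9.93 on the control arrays, 10.52 and 10.47 with phenylephrine and 10.76 and 10.69 with stretch. Every treated array was above both controls, and here the stretch arrays were the highest. Shmt2 rose 1.73-fold with stretch (0.79 ± 0.10; 95% interval 0.56 to 1.03; adjusted p = 0.0301) and 1.48-fold with phenylephrine (0.57 ± 0.10; 0.33 to 0.80; adjusted p = 0.0284). These calls depended on single arrays. For stretch the adjusted p was 0.368 without control replicate 1, 0.37 without control replicate 2, 0.391 without stretch replicate 1 and 0.243 without stretch replicate 2, while the change stayed between 0.76 and 0.83. For phenylephrine it was 0.209 and 0.256 without control replicate 1 or 2 and 0.0794 without either stretch array, and 0.076 with only the arrays of the 2 groups compared.

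MTHFD2 oxidises the folate-bound unit in mitochondria and is known for its high level in embryonic and dividing cells. Mthfd2 (1372808_at) gave 8.82 and 8.90 on the control arrays, 10.65 and 10.48 with phenylephrine and 10.10 and 10.03 with stretch. The groups did not overlap, and the gap between the highest control and the lowest array was 1.58 log2 for phenylephrine and 1.13 for stretch. Mthfd2 rose 3.26-fold with phenylephrine (1.70 ± 0.11; adjusted p = 0.00103) and 2.3-fold with stretch (1.20 ± 0.11; adjusted p = 0.0048). Only 0.0548% of all probe sets had a larger rise with phenylephrine, and 0.113% with stretch. The phenylephrine call held without any 1 array. The stretch call was lost without control replicate 1 (adjusted p = 0.0735), control replicate 2 (0.0646) or stretch replicate 1 (0.0746), at changes of 1.16, 1.25 and 1.17 log2.

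MTHFD1L releases formate, which leaves the mitochondrion for use in the cytosol. Mthfd1l (1390141_at) gave 7.82 and 7.49 on the control arrays, 8.89 and 8.50 with phenylephrine and 8.47 and 8.24 with stretch. Treated arrays were again above both controls, but replicates differed by 0.23 to 0.39 log2, with replicate 1 the higher in each group. The gene rose 2.05-fold with phenylephrine (1.04 ± 0.16; adjusted p = 0.0135), and the adjusted p was 0.0778 without control replicate 2. With stretch it had 0.70 ± 0.16 (adjusted p = 0.21). Its control signals lay under the array medians of 8.30 to 8.33.

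**Figure D2:**
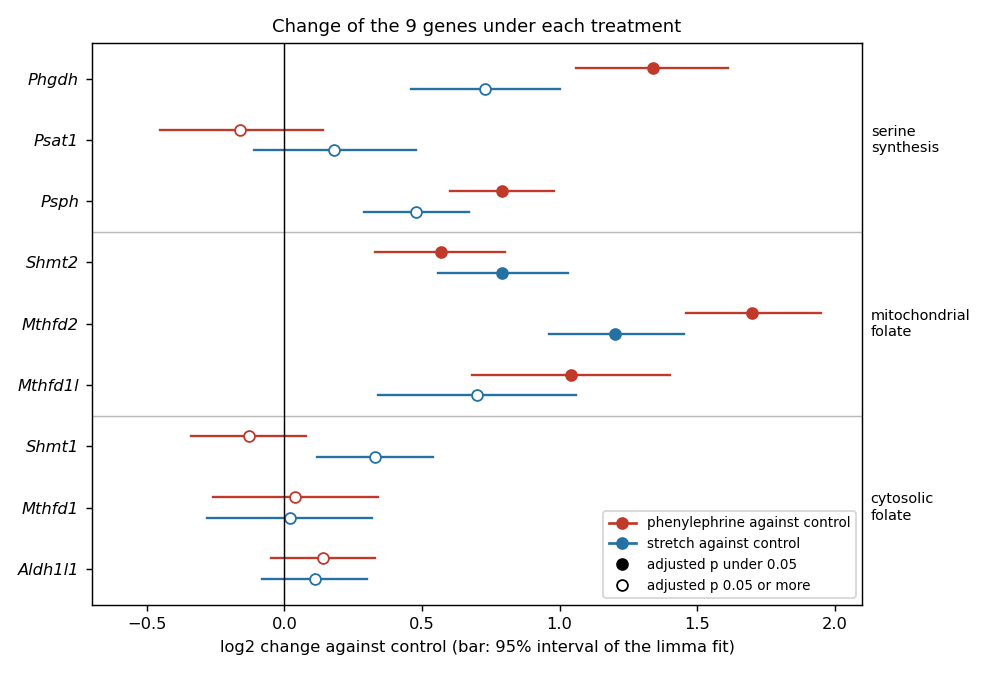
Log2 change against control (horizontal axis) of the 9 genes with phenylephrine (red) and stretch (blue), with 95% intervals of the limma fit as bars and filled points where the adjusted p was under 0.05. The 3 mitochondrial folate genes of the 9 lie between 0.57 and 1.70, and the 3 cytosolic ones of the 9 between -0.13 and 0.33.

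In the cytosol, SHMT1 runs the same reaction as SHMT2. Shmt1 (1373625_at) gave 9.28 and 9.23 on the control arrays, 9.17 and 9.08 with phenylephrine and 9.63 and 9.54 with stretch. Stretch arrays lay above both controls and phenylephrine arrays below them, as for Psat1. The changes were 0.33 ± 0.09 with stretch (adjusted p = 0.396) and -0.13 ± 0.09 with phenylephrine (adjusted p = 0.553). Over the 6 arrays the centred signals of Shmt1 and Psat1 differed by 0.09 log2 (root mean square), the smallest such difference among the 36 pairs of the 9 genes.

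MTHFD1 carries out in the cytosol, on 1 protein, the steps that interconvert the folate-bound units. Mthfd1 (1368181_at) gave 10.15 and 10.04 on the control arrays, 10.29 and 9.99 with phenylephrine and 10.17 and 10.06 with stretch. The 3 groups overlapped. The changes were 0.04 ± 0.13 with phenylephrine (95% interval -0.26 to 0.34; adjusted p = 0.923) and 0.02 ± 0.13 with stretch (-0.28 to 0.32; adjusted p = 1), so a change of up to 0.34 log2 in size was within the interval. Aldh1l1 (1368378_at) gave 7.86 and 7.97 in control, 7.95 and 8.15 with phenylephrine and 8.06 and 7.99 with stretch. Its signals were under the array medians and its changes were 0.14 ± 0.08 (adjusted p = 0.465) and 0.11 ± 0.08 (adjusted p = 1).

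The windows before Mthfd2 and Shmt1 are shown as a mitochondrial gene that rose with both treatments and a cytosolic gene that passed with neither. They are chr4:117380351-117380600 for Mthfd2 and chr10:45990342-45990591 for Shmt1, both on the minus strand of GRCr8. Capitals mark CCAAT boxes on either strand and E-boxes, CACGTG, which read the same on both strands.
Mthfd2: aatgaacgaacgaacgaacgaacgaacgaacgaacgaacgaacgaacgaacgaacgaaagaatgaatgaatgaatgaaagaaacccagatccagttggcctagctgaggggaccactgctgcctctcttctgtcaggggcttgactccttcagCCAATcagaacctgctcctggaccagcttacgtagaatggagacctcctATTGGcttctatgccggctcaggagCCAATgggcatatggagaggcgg
Shmt1: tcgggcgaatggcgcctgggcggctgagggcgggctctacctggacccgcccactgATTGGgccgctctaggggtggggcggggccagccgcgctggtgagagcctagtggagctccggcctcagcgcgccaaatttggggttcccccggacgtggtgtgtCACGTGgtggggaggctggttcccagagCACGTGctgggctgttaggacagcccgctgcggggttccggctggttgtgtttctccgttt
The Mthfd2 window holds 3 CCAAT boxes, at 97, 48 and 23 bases before the start. The Shmt1 window holds 2 E-boxes, at 89 and 61 bases, and 1 CCAAT box at 194 bases. Of the 8 genes with a RefSeq window, Shmt1 was the only one with an E-box, which 5.59% of all windows held, and 5 had a CCAAT box (Phgdh, Psat1, Mthfd2, Shmt1 and Aldh1l1), held by 34.0% of all windows. The letters TGATGNAA, the response element bound by ATF4 with C/EBP proteins, were searched on both strands and found in 0 of the 8 windows and in 3.4% of all. The motifs shared no bases in these windows, and a match is a description of the sequence.

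The direct comparison of stretch with phenylephrine asks whether the stimuli differed in their effect. In limma 0 of the 9 genes passed, against 1.33% of all probe sets (0.718% higher and 0.612% lower with stretch), and 5 of the 9 had an unadjusted p under 0.05, as did 12.5% of all probe sets. The difference was -0.60 ± 0.12 for Phgdh (95% interval -0.87 to -0.33; adjusted p = 0.0595), -0.50 ± 0.11 for Mthfd2 (-0.75 to -0.25; adjusted p = 0.0813) and 0.46 ± 0.09 for Shmt1 (0.25 to 0.67; adjusted p = 0.0606). These 3 genes passed with each array centred on its median and without the mean-variance trend, and 4 passed after quantile normalization, Psph with them. For Psph the difference was -0.31 ± 0.08 (-0.50 to -0.12), for Psat1 0.34 ± 0.13 (0.04 to 0.63), for Mthfd1l -0.34 ± 0.16 (-0.70 to 0.02) and for Shmt2 0.23 ± 0.10 (-0.01 to 0.47). For Mthfd1 and Aldh1l1 it was -0.02 ± 0.13 (-0.32 to 0.28) and -0.03 ± 0.08 (-0.21 to 0.16). Stretch arrays were both below both phenylephrine arrays in 4 of the 9 genes, Phgdh, Psph, Mthfd2 and Mthfd1l, as in 17.2% of all probe sets, and both above in Psat1, Shmt2 and Shmt1, as in 21.6%.

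Counted by overlap alone, both stretch arrays were above both controls in 8 of the 9 genes, all but Mthfd1, where 19.4% of all probe sets were, and below them in 0 of the 9, where 16.5% were. Both phenylephrine arrays were above both controls in 5 of the 9 (21.5% of all probe sets) and below them in 2, Psat1 and Shmt1 (22.1%). The gaps ranged from 0.02 log2, for Aldh1l1 with stretch and Psat1 with phenylephrine, to 1.58 for Mthfd2 with phenylephrine.

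The genes around the pathway were read from lists. Of 26 measured other genes of folate and glycine metabolism, 0 passed in limma with either treatment (3 with stretch and 2 with phenylephrine had an unadjusted p under 0.05), at medians of 0.02 with stretch and 0.05 with phenylephrine. The 26 include further mitochondrial genes, so the 3 mitochondrial genes of the 9 do not stand for mitochondrial folate metabolism as a whole. The largest change was that of Ggh, which cleaves polyglutamate from folates, at 0.68 ± 0.17 with phenylephrine (adjusted p = 0.073). Of 10 genes of purine synthesis and 5 of thymidylate synthesis, pathways that draw on folate-bound units, 0 passed with either treatment (at an unadjusted p under 0.05, 1 purine gene with phenylephrine; medians 0.12 and -0.08 with stretch, -0.04 and 0.01 with phenylephrine). Of 14 genes of the methionine cycle and transsulfuration, 1 fell with phenylephrine, where 1.87% of all probe sets fell, and 0 passed with stretch. In limma 1 of the 14 had an unadjusted p under 0.05 with phenylephrine and 2 with stretch. The gene that fell was Gamt, the enzyme that makes creatine with a methyl group from S-adenosylmethionine, at 10.64 and 10.47 on the control arrays, 9.47 and 9.32 with phenylephrine and 10.05 and 9.88 with stretch. It fell by 1.16 log2 with phenylephrine (SE 0.12; adjusted p = 0.0038) and had -0.59 ± 0.12 with stretch (adjusted p = 0.151).

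Of 12 transporters of serine and glycine, 1 rose with each treatment, where 0.306% of all probe sets rose with stretch and 1.73% with phenylephrine. At an unadjusted p under 0.05 there were 4 with stretch and 1 with phenylephrine (5.54% and 16.6% of all probe sets). Slc1a4, a carrier of neutral amino acids that takes up serine, gave 9.09 and 9.03 on the control arrays, 9.91 and 9.57 with phenylephrine and 10.06 and 9.88 with stretch. It rose by 0.90 ± 0.13 with stretch (adjusted p = 0.0457) and by 0.67 ± 0.13 with phenylephrine (adjusted p = 0.0358). Both calls sat near the threshold, which was passed with stretch in 2 and with phenylephrine in 1 of the 6 fits that left out 1 array. In each case every fit without a control array missed it.

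The list for the supply of 3-phosphoglycerate and the amino group held 20 measured genes of glycolysis and glutamate metabolism. It includes genes that act after 3-phosphoglycerate, so its counts are not those of supply alone. With phenylephrine 7 of the 20 rose and 0 fell (median 0.29; 12 at an unadjusted p under 0.05), where 1.73% of all probe sets rose. With stretch 0 passed in limma (median 0.11; 5 at an unadjusted p under 0.05), where 0.345% of all probe sets changed. Only Eno3 passed in the direct comparison of the treatments. The 7 were Hk2, Pfkl, Pfkp and Tpi1, which act before 3-phosphoglycerate, Eno1 and Eno3, which act after it, and Gpt2, a glutamate-using aminotransferase of mitochondria. Their rises lay between 0.46 ± 0.09 (Gpt2) and 2.53 ± 0.12 (Eno3). With 1 array left out the number that rose was 2 to 5, the lowest without control replicate 2.

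The ATF4 panel held 12 genes beside the members. With stretch 4 of the 12 rose and 0 fell (median 0.59; 11 at an unadjusted p under 0.05): Trib3, Asns, Chac1 and Sesn2. With phenylephrine 5 of the 12 rose and 0 fell (median 0.42; 9 at an unadjusted p under 0.05): Asns, Atf5, Chac1, Ddit4 and Trib3. Over all probe sets, 0.306% rose with stretch and 1.73% with phenylephrine, and 5.54% and 16.6% had an unadjusted p under 0.05. Mean signals of 9 of the 12 were higher with stretch than with phenylephrine (median difference 0.20 log2). Asns, which makes asparagine, gave 9.46 and 9.21 on the control arrays, 11.41 and 11.11 with phenylephrine and 11.05 and 10.88 with stretch, and rose with both (1.93 ± 0.15, adjusted p = 0.00147; 1.63 ± 0.15, adjusted p = 0.00555). Trib3, a pseudokinase, gave 8.62 and 8.68 in control, 9.38 and 9.25 with phenylephrine and 10.29 and 10.27 with stretch. Asns was thus highest with phenylephrine, as Phgdh, Psph, Mthfd2 and Mthfd1l were, and Trib3 was highest with stretch, as Shmt2 was. Of these 7 genes, only Trib3 passed in the direct comparison of stretch with phenylephrine. The counts fell to 1 for stretch without control replicate 2 or without stretch replicate 1, to 2 without control replicate 1 or without stretch replicate 2, and for phenylephrine to 1 and 2 without control replicate 1 and 2.

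**Figure D3:**
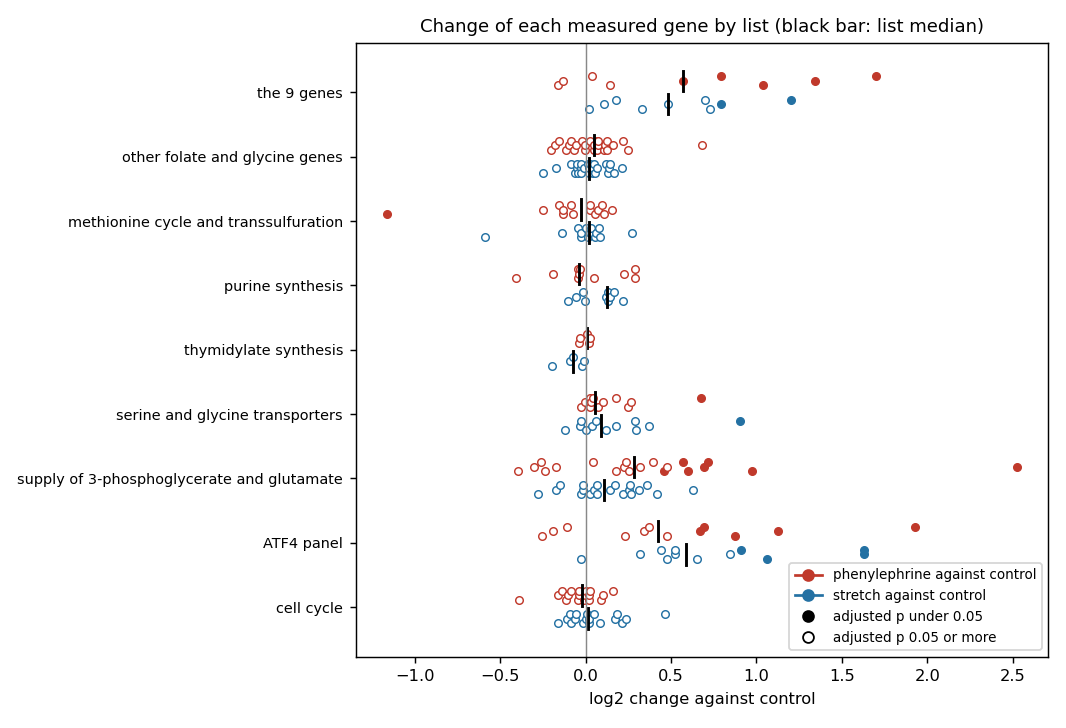
Log2 change against control (horizontal axis) of the 9 genes and of each measured gene of 8 lists, with phenylephrine in red and stretch in blue, filled points for an adjusted p under 0.05 and black bars for list medians. The purine, thymidylate and methionine lists have medians between -0.08 and 0.12.

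By likeness of signal over the 6 arrays, measured as the root mean square difference of centred log2 values among 14208 other genes, Otud1, Timp1 and Egln3 were nearest to Phgdh (0.09 log2 each, beside a median of 0.56 over all genes). Phf24 (0.13), Fhl1 (0.15) and Tnfrsf12a (0.16) were nearest to Mthfd2, with a median of 0.72. Coq10b (0.07), Bnip3 (0.09) and Pcsk6 (0.09) were nearest to Mthfd1l, with a median of 0.47. The named genes were picked as the nearest of all. The medians were larger for members with larger changes, so they do not gauge how close a match is. Among the 9 genes themselves, Phgdh was closest to Mthfd1l (0.18) and farthest from Psat1 and Shmt1 (0.62 each).

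Other measures moved with the groups too. The 12 fibroblast markers measured had a mean signal of 11.60 to 11.66 log2 on the control arrays, 11.12 to 11.23 with phenylephrine and 11.35 on both stretch arrays. Of these, Dpt, Col3a1, Postn and Pdgfra fell with phenylephrine, where 1.87% of all probe sets fell, and 0 passed with stretch. In limma 10 of the 12 had an unadjusted p under 0.05 with phenylephrine and 4 with stretch. Endothelial markers ran from 8.62 to 8.64 in control, 8.30 to 8.35 with phenylephrine and 8.50 to 8.54 with stretch, and 2 of 7 fell with phenylephrine. Of 8 macrophage and leukocyte markers 1 fell with phenylephrine, and they ran from 9.38 to 9.40, 9.03 to 9.23 and 9.30 to 9.38 in control, phenylephrine and stretch. Of 7 markers of smooth muscle and pericytes 1 rose with stretch and 2 with phenylephrine (9.88 to 9.91, 10.34 to 10.43 and 10.23). Only 3 of these 7 had a change above 0 with phenylephrine (median -0.03), and 5 had with stretch (median 0.28). The largest change was that of Cnn1, at 2.55 with phenylephrine and 1.45 with stretch. Of 5 mesothelial markers 2 rose with phenylephrine (8.42, 8.54 to 8.65 and 8.45 to 8.49). Heart muscle markers, 11 measured, lay at 13.87 to 14.12 on all arrays and 0 passed in limma, as was the case for 3 red blood cell (8.57 to 8.74), 5 Schwann cell and neuron (8.16 to 8.24) and 18 cell cycle genes (8.67 to 8.87) against control. At an unadjusted p under 0.05 there were 1 heart muscle and 2 cell cycle genes with stretch, 2 and 1 with phenylephrine, and 0 of the red blood cell and Schwann cell lists. The part of these shifts in the results for the 9 genes was not tested, and in bulk RNA a smaller number of cells and less RNA per cell cannot be told apart. Phenylephrine replicate 2 had the lowest spike-in signal (median 9.04 log2 against 9.68 to 9.95) and the narrowest distribution (interquartile range 1.70 against 1.80 to 1.92). The control probe sets at the 3′ and 5′ ends of Gapdh, whose difference is a sign of RNA quality, differed by 0.25 and 0.30 log2 on the phenylephrine arrays, 0.36 and 0.59 in control and 0.36 and 0.48 with stretch, so both phenylephrine arrays were the lowest. Its part in the results was not tested. Without phenylephrine replicate 2 the same 5 genes rose with phenylephrine and the same 2 with stretch.

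**Figure D4:**
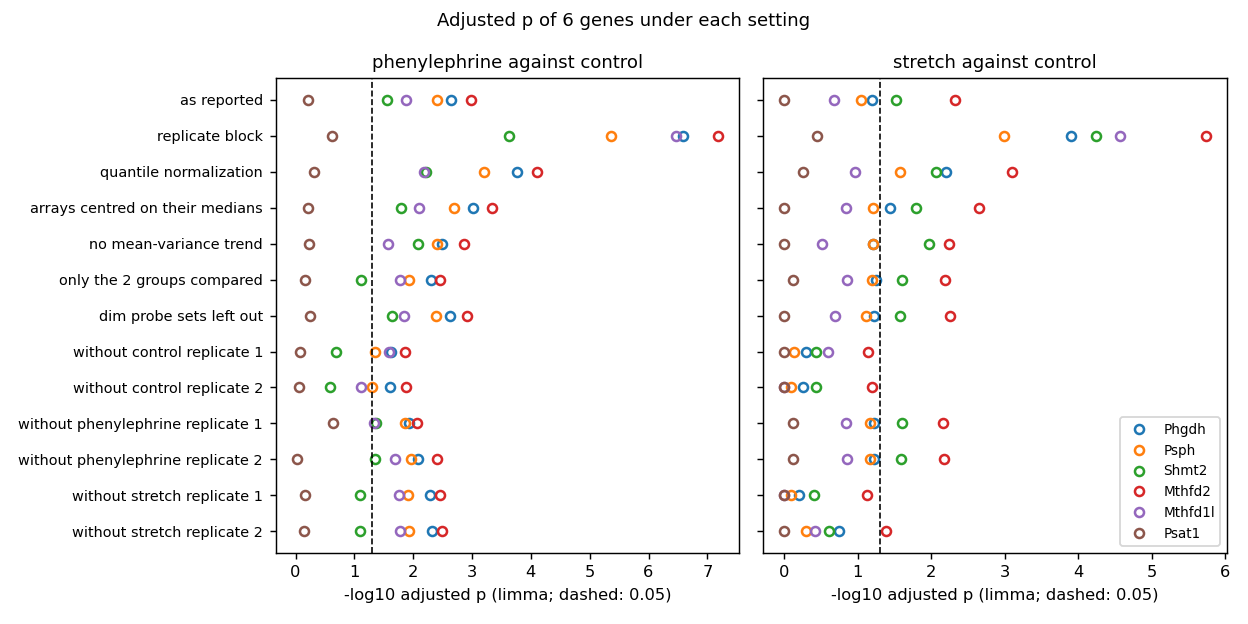
Adjusted p in limma on a -log10 scale (horizontal axis) for 6 of the genes under the reported fit and 12 other settings (vertical axis), for phenylephrine on the left and stretch on the right, with the threshold dashed. Phgdh and Mthfd2 are past it with phenylephrine under every setting drawn, and Psat1 is past it under none.

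The RefSeq table holds loci whose symbols name them as copies of 4 of the 9 genes, 6 for Phgdh and 1 each for Psat1, Shmt2 and Mthfd1. It classes the copy of Mthfd1 as protein coding and the others as pseudogenes. Whether these probe sets also read such copies was not tested.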

How the data were processed

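The authors deposited 1 value per probe set and array for 6 single-channel Affymetrix arrays. The values were taken as log2 expression, since they run from 5.8 to 15.18 on the arrays. How the authors summarised, background-corrected and normalized them was not stated in the labels or file, and array medians differed by 0.03 log2 or less. Of 31099 probe sets, 57 were array controls, and tests ran on the other 31042 with no filter on dim values. Genes come from the platform annotation of 2016 and 20826 probe sets had 1 symbol, 436 several and 9780 none. The Entrez identifiers of all 9 genes matched the RefSeq table under the same symbol. A gene with several probe sets was read from its brightest.

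limma 3.58.1 in R 4.3.3 (lmFit, eBayes with a mean-variance trend, 1 mean per group, two-sided, Benjamini-Hochberg over all probe sets) gave all adjusted p-values, with 3 residual and 4.8 prior degrees of freedom. The script was tested on simulated data with independent arrays, which checks the code and not whether the model suits these arrays. An exact test of 2 against 2 arrays cannot pass the threshold. Medians of lists are descriptions. The genes and lists were chosen with earlier results of these data known. Named genes are the 9, list genes past the threshold or with the largest change, and the 3 genes nearest in signal to each of the 3 members with the largest called change. For arrays, their number limits the precision.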

Additional observations from a re-analysis of the deposited data

Results flagged for a closer look

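Psat1 and Shmt1 stood out because both stretch arrays lay above both controls while both phenylephrine arrays lay below them. Taken singly, the first order held for 19.4% of all probe sets and the second for 22.1%. The gaps to the controls were 0.07 and 0.02 log2 for Psat1 and 0.26 and 0.06 for Shmt1. The direct difference, stretch minus phenylephrine, was 0.34 ± 0.13 log2 for Psat1 (SE; limma adjusted p = 0.329, 0.0169 to 0.876 over 12 alternatives) and 0.46 ± 0.09 for Shmt1 (adjusted p = 0.0606, 0.000603 to 0.375). For Psat1 the alternative past the threshold was the term for the replicate number, and for Shmt1 there were 4.

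Among genes of the pathway lists, 7 differed between the treatments in the direct limma comparison. Eno3 had -2.27 ± 0.12 (adjusted p = 0.000683) and Ddit4, an inhibitor of mTORC1 signalling, -0.72 ± 0.10 (adjusted p = 0.0179), both lower with stretch than with phenylephrine. Trib3 (0.96 ± 0.09; adjusted p = 0.00495), Ddit3, which encodes CHOP (0.84 ± 0.12; adjusted p = 0.0214), Cebpb (0.78 ± 0.11; adjusted p = 0.0191), the kinase gene Bub1 (0.57 ± 0.09; adjusted p = 0.0274) and Cth, the enzyme that makes cysteine from cystathionine (0.40 ± 0.06; adjusted p = 0.0258), were higher with stretch. Eno3 passed in all 6 fits that left out 1 array, Trib3 in 5, Cth, Cebpb, Ddit4 and Bub1 in 2 and Ddit3 in 1. Cth had signals of 7.25 to 7.68, near the 25th percentile of the arrays (7.64 to 7.67), so that it was not tested with dim probe sets left out, and its adjusted p was 0.0523 without the mean-variance trend. Among marker genes, the endothelial gene Kdr was higher (0.80 ± 0.12; adjusted p = 0.0274) and the smooth muscle gene Cnn1 lower (-1.10 ± 0.13; adjusted p = 0.0109) with stretch than with phenylephrine.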

How the results depend on the processing

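A term for the replicate number (replicate block) gave 1028 changed probe sets for stretch, 5384 for phenylephrine and 3734 for stretch against phenylephrine, in place of 107, 1117 and 413, and called 6, 5 and 6 of the 9 genes in place of 2, 5 and 0. For stretch the 6 were Phgdh, Psph, Shmt2, Mthfd2, Mthfd1l and Shmt1. Deviations of equal-numbered arrays from their group means correlated at 0.487 to 0.673 across probe sets, a hint from the data that the labels do not back, so the blocked values stand here as an alternative. Quantile normalization gave 386, 2790 and 1527 probe sets, 4 genes for stretch and 4 for stretch against phenylephrine, and medians of the 9 genes of 0.61 for phenylephrine and -0.07 for stretch against phenylephrine. The share of stretch calls that were rises was 72.5% with it and 69.9% with the block, in place of 88.8%. With only the 2 groups compared, 661 probe sets passed for phenylephrine and 230 for stretch against phenylephrine. Arrays centred on their medians, and a fit without the trend, each called 3 genes for stretch against phenylephrine. Of the 12 other ATF4 genes, 11 rose with stretch under the block and 8 under quantile normalization.

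With 1 array left out, the lone array of its group is assumed to vary like the others. The number of probe sets was 26 to 112 for stretch, 189 to 1249 for phenylephrine and 51 to 473 for stretch against phenylephrine. Of the 9 genes 0 to 2, 2 to 5 and 0 passed, and their median was 0.45 to 0.51, 0.54 to 0.59 and -0.17 to 0.01. Signs turned only for Mthfd1 and Aldh1l1. Mthfd1 ranged from -0.04 to 0.08 and -0.10 to 0.19 for stretch and phenylephrine; it had -0.04 and -0.03 for stretch without control replicate 2 or stretch replicate 1, -0.02 and -0.10 for phenylephrine without control replicate 2 or phenylephrine replicate 1, and 0.13 and 0.03 for stretch against phenylephrine without phenylephrine replicate 1 or stretch replicate 2. Aldh1l1 ranged from -0.12 to 0.07, with 0.07 and 0.01 for stretch against phenylephrine without phenylephrine replicate 2 or stretch replicate 2. The cause was not tested. The mean over the probe sets of a gene could not differ, as each had 1. The alternatives were applied to list genes after the data had been seen.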
